A study of Mus musculus with 40 samples.

Results

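The 10 genes described here encode the main inflammatory cytokines of the interleukin-1 (IL-1), tumor necrosis factor and IL-6 families, the anti-inflammatory cytokine IL-10 and the inflammasome sensor NLRP3. They are Tnf, Il1a, Il1b, Il1rn, Il6, Il10, Il18, Il33, Osm and Nlrp3. They were chosen by symbol, mapped to Ensembl identifiers, out of 55359 genes counted in mouse liver. All 10 were found in the counts and 7 of them had enough reads to be tested, as did 15373 genes of the whole transcriptome. Il6, Il10 and Osm did not pass the filter on low counts and are given as counts. Hepatic RNA was sequenced from 40 male C57BL/6 mice, 1 library per mouse, in 8 groups of 5. The mice were gavaged every 4 days over 28 days, from 30 to 58 days of age per the labels (the study's methods put the first dose slightly earlier), with sesame oil alone or with the dioxin TCDD in sesame oil at one of 3 low doses (0.03, 0.1 and 0.3 µg/kg) or 4 higher ones (1, 3, 10 and 30 µg/kg). TCDD activates the aryl hydrocarbon receptor (AhR), which acts in hepatocytes and in immune cells. The question was at which doses the transcripts of these inflammatory mediators changed, in which direction, and beside which cells' markers.

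IL-1α and IL-1β signal through the receptor IL-1R1 with its accessory chain IL-1RAP, and the IL-1 receptor antagonist encoded by Il1rn occupies the same receptor without signaling. IL-1β and IL-18 are made as inactive precursors that caspase-1 cleaves once an inflammasome such as NLRP3 has assembled, whereas IL-1α and IL-33 are alarmins that dying cells release. In liver, resident macrophages (Kupffer cells) and recruited monocytes and neutrophils are known sources of TNF, IL-1β and oncostatin M (Osm), and IL-33 is made by stromal and endothelial cells.

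Library totals ranged from 15.5 to 21.0 M gene counts, with a median of 17.5 M, and the counts of all 80 replicate pairs differed beyond sampling noise (chi-square over degrees of freedom at least 10.2). The AhR target Cyp1a1, a check of the labels, was at 1.66 ± 0.480 counts per 1 M (CPM; SD, n = 5) in vehicle livers and 5767 ± 666 CPM (SD, n = 5) at 30 µg/kg. Library sizes for CPM were TMM-scaled (trimmed mean of M-values), and a gene was called when edgeR's quasi-likelihood test gave a Benjamini-Hochberg adjusted p under 0.05 over all 15373 genes with a change of at least 1.5-fold. Liver was the labelled tissue, and the 8 hepatocyte markers summed to between 103187 and 128344 CPM in the vehicle livers.

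The promoters are shown for the receptor antagonist, the member that rose most, and for IL-1β and IL-18, which moved in opposite directions. RefSeq windows (GRCm38.p6) of 300 bases, from 250 before to 50 after each start site, were matched for 8 members in 12 windows (all but Il10 and Osm), and the 250 upstream bases are printed 5′ to 3′ on the gene's strand. Capitals mark matches, on either strand, to the dioxin response element core (GCGTG) bound by the AhR or to the AP-1 motif TGACTCA. The first Il1rn window lies at chr2:24336610-24336859 on the plus strand, the Il1b window at chr2:129371140-129371389 on the minus strand and the Il18 window at chr9:50554450-50554699 on the plus strand.
Il1rn: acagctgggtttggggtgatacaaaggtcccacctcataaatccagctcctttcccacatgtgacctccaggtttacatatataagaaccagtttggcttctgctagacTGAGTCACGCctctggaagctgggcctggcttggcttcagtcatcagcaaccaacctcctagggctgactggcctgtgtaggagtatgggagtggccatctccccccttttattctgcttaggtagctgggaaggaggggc
Il1b: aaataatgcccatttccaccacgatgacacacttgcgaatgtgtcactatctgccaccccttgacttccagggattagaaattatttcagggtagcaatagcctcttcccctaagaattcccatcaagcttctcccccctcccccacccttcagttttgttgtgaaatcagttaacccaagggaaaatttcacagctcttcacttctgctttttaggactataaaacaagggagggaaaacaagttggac
Il18: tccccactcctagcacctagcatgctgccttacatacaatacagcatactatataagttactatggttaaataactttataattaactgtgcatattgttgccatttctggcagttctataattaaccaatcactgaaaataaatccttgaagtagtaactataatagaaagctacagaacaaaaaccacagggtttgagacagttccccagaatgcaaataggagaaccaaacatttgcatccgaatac

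The capitals in the first Il1rn window hold an AP-1 match 141 bases and a dioxin response element core 136 bases before its start site, which overlap in the letters CA. The other Il1rn windows, which begin at chr2:24345041 and chr2:24345121 for later start sites, hold no match. Counts per gene do not tell which start site was used. Among the 12 windows the first Il1rn window was the only one with the core, which 32.4% of all 32851 mouse windows contain. AP-1 matches were also found 12 bases before the start of Il1a and 249 bases before that of Il6, against 5.20% of all windows. The NF-kB motif, present in 8.46% of all windows, was found 44 bases before the start of Il6 and 186 bases before that of the second Nlrp3 window, and the STAT motif TTCNNNGAA, present in 8.30%, was in none. No match was found in the windows of Tnf, Il1b, Il18 or Il33, which says only that these letters are not within them.

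No member was called at 0.03, 0.1, 0.3 or 1 µg/kg, doses at which 0.0195%, 0.0976%, 0.468% and 2.78% of all tested genes were. At 3 µg/kg Il1b alone was called, as higher (background 6.75% in either direction and 4.53% higher). At 10 µg/kg 6 of the 7 tested members were called (background 21.8%), 5 of them higher (background 13.6%) and Il18 lower (background 8.13%), and Tnf was not called. At 30 µg/kg all 7 tested members were called (background 42.1%), 6 of them higher (background 23.2%) and Il18 lower (background 18.9%). Each of the 7 also had a dose trend, a slope over the ordered dose steps, upward in 6 and downward in Il18, against 57.7% of all genes (31.5% upward and 26.1% downward). Groups of 5 livers that did not overlap vehicle in CPM were seen at 30 µg/kg for 5 members above it and 1 below, where 19.7% and 17.9% of all genes were so placed, and at 10 µg/kg for 3 above and 1 below (12.9% and 10.1%). The median change of the tested members at 30 µg/kg was 2.02 on the log2 scale, and that of all tested genes was 0.03. When libraries were scaled to their total counts alone, the median of all genes shifted to 0.52 and 80.4% of the called genes were higher, compared with 55.1% under TMM, while the same 7 members kept their directions and calls.

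**Figure D1:**
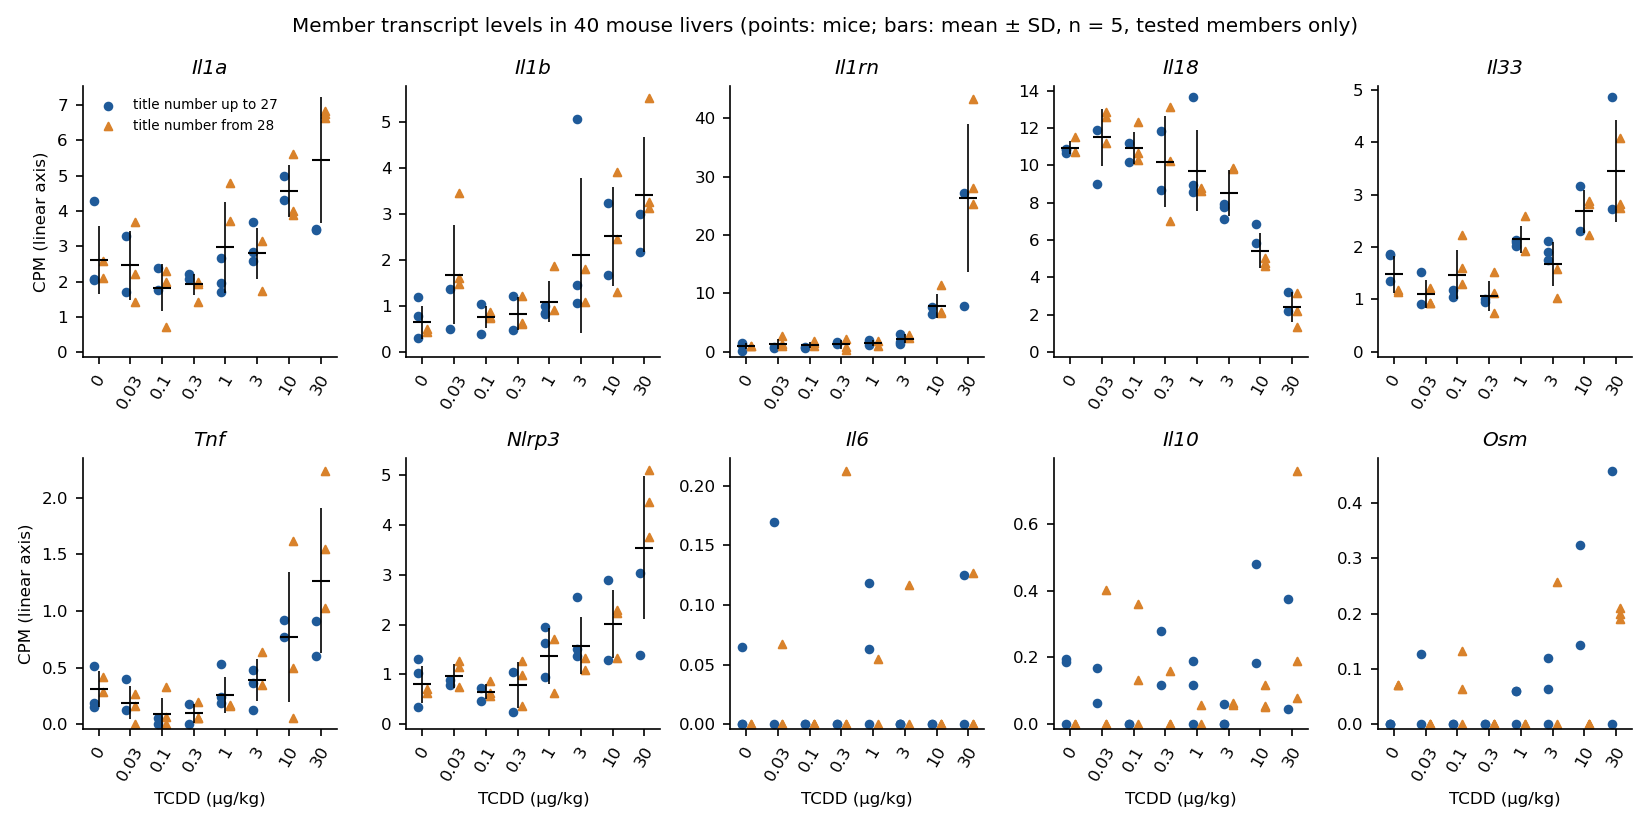
Transcript levels of the 10 members in each of 40 livers (CPM, linear axes) by TCDD dose (µg/kg), with symbols for the 2 series of title numbers, and mean ± SD (n = 5) for the 7 tested members. Il1rn climbs from 0.986 CPM in vehicle livers to 26.4 CPM at 30 µg/kg, Il18 descends from 10.9 to 2.41 CPM, and most points of Il6, Il10 and Osm lie near 0.

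Il1rn, the receptor antagonist of IL-1, had the largest change of the members. The 5 vehicle livers held 30, 18, 3, 15 and 15 counts, the 10 µg/kg livers 135, 166, 221, 117 and 120, and the 30 µg/kg livers 170, 654, 666, 706 and 1029. All livers at 10 and at 30 µg/kg lay above all vehicle livers, and within the highest dose replicate 1 stood far below the other four. The log2 fold change was 2.97 ± 0.41 (SE) at 10 µg/kg (adjusted p = 5.39e-07) and 4.71 ± 0.43 at 30 µg/kg (adjusted p = 5.83e-12). Il1rn also rose from 10 to 30 µg/kg, by 1.75 ± 0.35 (adjusted p = 0.000167), one of 2 members to change between these doses, as did 21.1% of all genes (10.6% in each direction). At 3 µg/kg the difference was 1.16 ± 0.43 (adjusted p = 0.0789), and 4 of 5 livers lay above every vehicle liver.

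Il1b, the inflammasome-processed form of IL-1, was called at the lowest dose of any member. Its vehicle counts were 24, 5, 12, 7 and 6. At 0.03 µg/kg the counts were 24, 8, 63, 22 and 24, and the log2 fold change of 1.36 ± 0.46 was not called (adjusted p = 1.00). At 3 µg/kg the counts were 24, 85, 17, 31 and 17, of which the 85 of replicate 2 was the highest, and the groups overlapped. The log2 fold change at that dose was 1.67 ± 0.46 (adjusted p = 0.0125), but without replicate 2 it was 1.05 (adjusted p = 0.146) and the call was lost. The same liver had the highest Nlrp3 count of its group, 43, and its 7 neutrophil markers summed to 32.0 CPM, beside 3.65 to 6.41 CPM in the other four. Its library also had the lowest share of reads in genes of all 40, 71.3% (median 78.1%). Its unmapped share, 11.3% (median 5.14%), was the highest. The part of neutrophils or of library quality in the result was not tested. At 10 µg/kg the counts were 35, 70, 75, 22 and 44 and at 30 µg/kg 47, 72, 82, 82 and 131. In CPM both groups lay entirely above vehicle. Il1b was higher by 1.93 ± 0.45 (adjusted p = 0.000933) and 2.37 ± 0.45 (adjusted p = 2.42e-05), and the difference between these doses was 0.44 ± 0.40 (adjusted p = 0.439).

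Il1a, the alarmin that also engages IL-1R1, rose less. Its vehicle counts were 86, 33, 32, 30 and 36, with replicate 1 apart from the rest. The counts were 90, 108, 108, 66 and 72 at 10 µg/kg and 75, 84, 174, 172 and 160 at 30 µg/kg, and both groups overlapped vehicle in CPM. The log2 fold change was 0.79 ± 0.29 at 10 µg/kg (adjusted p = 0.0347) and 1.04 ± 0.29 at 30 µg/kg (adjusted p = 0.00241). The call at 10 µg/kg was lost without a filter on low counts (0.81, adjusted p = 0.0560), with limma on the deposited log2 values (0.58, under 1.5-fold), in either series of title numbers alone and in 6 fits that left out a library. Exons of Il1a overlap those of Gm14023 on the opposite strand, and reads in the shared stretches were left uncounted. Such reads cannot be assigned to either gene in unstranded libraries. They made up 28.7% of the reads that could belong to Il1a, and at most 1.59% for any other member. With both strand columns summed, which credits all those reads to Il1a and may include reads of Gm14023, the changes were 0.68 (adjusted p = 0.0463) and 0.79 (adjusted p = 0.0107).

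Il18 was the only tested member that fell. This cytokine is cleaved like IL-1β and drives interferon-γ production by lymphocytes. Its level was 10.9, 10.8, 10.7, 10.7 and 11.5 CPM in the vehicle livers, 7.14, 7.94, 7.78, 9.78 and 9.86 CPM at 3 µg/kg, 5.85, 6.87, 4.59, 5.00 and 4.78 CPM at 10 µg/kg and 3.19, 2.20, 2.17, 1.31 and 3.16 CPM at 30 µg/kg. No liver at 3, 10 or 30 µg/kg reached the lowest vehicle liver. At these doses 4.49%, 10.1% and 17.9% of all genes lay wholly below vehicle. The log2 fold change was -0.36 ± 0.17 at 3 µg/kg (adjusted p = 0.203, not called), -1.01 ± 0.18 at 10 µg/kg (adjusted p = 2.00e-05) and -2.18 ± 0.18 at 30 µg/kg (adjusted p = 1.03e-12), and it fell by 1.18 from 10 to 30 µg/kg (adjusted p = 4.32e-06). With total-count scaling it was -1.70 at the highest dose. Of the 8 hepatocyte markers 7 fell at 30 µg/kg (background 18.9%), with a median of -1.42 on the log2 scale. Their summed level went from between 103187 and 128344 CPM in vehicle livers to between 30908 and 63095 CPM, with no marker at 0. In bulk liver RNA, fewer cells of a type and less RNA per cell cannot be told apart. Relative to the mean log2 CPM of these markers, a reference chosen after the data were seen, Il18 was lower by 0.50 at 30 µg/kg in 5 of 5 livers (difference -0.50, 2-sided exact permutation p = 0.00794, the smallest that 5 against 5 can give, adjusted 0.0159 over 2 doses), while at 10 µg/kg the difference was -0.33 (exact p = 0.143).

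Il33, the alarmin of stromal cells, had 37, 30, 21, 17 and 16 counts in vehicle livers, 66, 50, 54, 49 and 40 at 10 µg/kg and 59, 117, 107, 71 and 65 at 30 µg/kg. In CPM neither dose overlapped vehicle. It rose by 0.84 ± 0.23 (adjusted p = 0.00481) and 1.21 ± 0.23 (adjusted p = 2.99e-05) on the log2 scale. The call at 10 µg/kg was lost with limma on the deposited log2 values, where the change of 0.51 was under 1.5-fold. All 5 livers at 1 µg/kg were also above all vehicle livers, as were those of 4.33% of all genes. The difference at that dose, 0.53 ± 0.24, was not called (adjusted p = 0.264), and at 3 µg/kg the groups overlapped. The transcript of its receptor, Il1rl1, was not tested, with 17 counts over the 5 livers at 30 µg/kg and 2 over the 5 vehicle livers.

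Tnf, which signals through TNFR1 and TNFR2, was scarce. Its counts were 3, 3, 8, 6 and 4 in vehicle livers, 16, 20, 31, 1 and 9 at 10 µg/kg and 13, 22, 27, 39 and 53 at 30 µg/kg. All livers at 30 µg/kg lay above vehicle in CPM, whereas replicate 4 at 10 µg/kg lay below every vehicle liver. The log2 fold change was 1.32 ± 0.62 at 10 µg/kg (adjusted p = 0.105, 0.0423 without that replicate, and 0.0469 with total-count scaling) and 2.02 ± 0.62 at 30 µg/kg (adjusted p = 0.00533). At 0.1 and 0.3 µg/kg the group sums were 7 and 8 counts beside 24 in vehicle livers, with log2 fold changes of -1.70 ± 0.79 (adjusted p = 1.00) and -1.66 ± 0.77 (adjusted p = 0.646), neither of which was called.

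Nlrp3, the sensor of the inflammasome that activates caspase-1, had 7, 21, 16, 9 and 10 counts in vehicle livers. Its counts were 27, 63, 43, 39 and 24 at 10 µg/kg and 30, 73, 117, 95 and 121 at 30 µg/kg. All livers at the highest dose, but only 4 of 5 at 10 µg/kg, lay above vehicle in CPM. The rise was 1.32 ± 0.39 (adjusted p = 0.00735) and 2.14 ± 0.38 (adjusted p = 1.02e-05). The difference between the 2 doses was 0.82 ± 0.35 (adjusted p = 0.0744), and it was called without replicate 1 of the highest dose (1.02, adjusted p = 0.0185) or replicate 2 at 10 µg/kg (0.99, adjusted p = 0.0475), and also with total-count scaling (1.09), the strand-specific column (1.08) or the second series of title numbers alone (1.16).

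**Figure D2:**
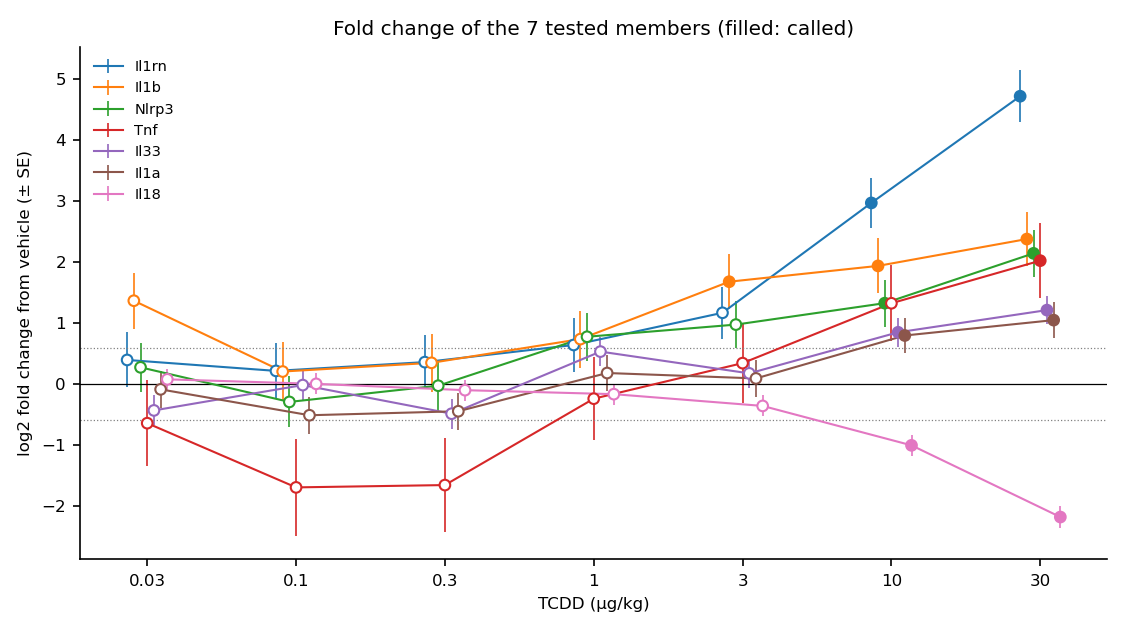
Change of the 7 tested members from vehicle (log2 fold change ± SE, edgeR, 5 livers per group) at each TCDD dose (µg/kg, evenly spaced steps), with filled points for called changes and dotted lines at 1.5-fold. Filled points appear at 3 µg/kg for Il1b and from 10 µg/kg for the other members except Tnf, and Il18 is the only one below 0 at 30 µg/kg, at -2.18.

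Il6, Il10 and Osm were at or near the limit of counting. A count of 3, the upper limit that a count of 0 allows, corresponded to 0.188 CPM per vehicle library and 0.124 CPM per 30 µg/kg library, and these limits and the intervals here cover counting error only. Il6, the pro-inflammatory activator of STAT3, had 1 count in the vehicle livers together, 0 in all 5 livers at 10 µg/kg and 6 at 30 µg/kg, as 0, 3, 0, 0 and 3. Il10, which restrains macrophages, had 0, 3, 3, 0 and 0 counts in vehicle livers and 1, 9, 5, 2 and 18 at 30 µg/kg, and the groups overlapped. Osm, a macrophage and neutrophil cytokine of the IL-6 family, had 0, 0, 0, 1 and 1 counts in vehicle livers and 0, 11, 5, 5 and 5 at 30 µg/kg, where 4 of 5 livers lay above every vehicle liver.

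The ratio of scaled group sums between 30 µg/kg and vehicle was 8.60 for Osm (95% exact binomial interval 2.15 to 74.8), 3.86 for Il10 (1.61 to 11.2) and 3.97 for Il6 (0.481 to 183). Mouse-to-mouse spread is outside these intervals. With no filter on low counts, edgeR gave adjusted p = 0.123 for Osm, 0.227 for Il10 and 0.489 for Il6, so that none was called at that dose. In the same fit Osm had a called upward trend over the dose steps (slope 0.42 ± 0.13 per step, adjusted p = 0.00632), whereas Il10 (0.19, adjusted p = 0.205) and Il6 (0.05, adjusted p = 0.832) did not.

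Per length, the order of the members differed between vehicle and the highest dose. In vehicle livers Il18 had 24.4 ± 1.02 length-scaled units (TPM, transcripts per 1 M; SD, n = 5, on the merged length of annotated exons), followed by Il1a at 3.06 ± 1.21, Il33 at 1.19 ± 0.339, Il1b at 0.777 ± 0.453, Nlrp3 at 0.459 ± 0.224, Tnf at 0.433 ± 0.210 and Il1rn at 0.413 ± 0.208. Il18 and Il1a lay apart from their neighbors, and the last 5 within the spread of the next in order. In the livers of the highest dose Il1rn led with 16.1 ± 7.17 TPM, then Il1a with 9.35 ± 3.19, Il18 with 7.81 ± 2.16, Il1b with 6.02 ± 1.92, Il33 with 4.10 ± 1.41, Nlrp3 with 2.98 ± 1.19 and Tnf with 2.59 ± 1.18, and each of these differed from the next in order by less than the larger SD. Il1rn was divided by 5535 bases, the exons of all its annotated transcripts together, against 1031 bases for Il18. Il1a was divided by its full 1974 bases, although reads in exons shared with Gm14023 were left uncounted, so its TPM may be too low.

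The antagonist transcript was compared with that of IL-1β within livers, as the log2 CPM of Il1rn minus that of Il1b. Il1a, the other agonist transcript, was not part of this comparison. The log2 ratio of Il1rn to Il1b was 0.48 ± 1.21 (SD, n = 5) in vehicle livers, 1.67 ± 0.43 at 10 µg/kg and 2.79 ± 0.55 at 30 µg/kg. At 30 µg/kg the lowest liver, at 1.80, exceeded the highest vehicle liver, at 1.54, and the difference of 2.31 had a 2-sided exact permutation p = 0.00794 (adjusted 0.0159 over 2 doses). At 10 µg/kg the groups overlapped and the difference was 1.19 (exact permutation p = 0.0397, adjusted 0.0397). That call was lost in 7 of 10 fits that left out a liver (all except those without vehicle replicate 2 and 10 µg/kg replicates 2 and 5). The differences over the 10 fits ran from 0.69 to 1.46. Leaving out a liver also raises the smallest p that the exact test can give. From 0.03 to 3 µg/kg the group means lay between -0.27 and 0.54.

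**Figure D3:**
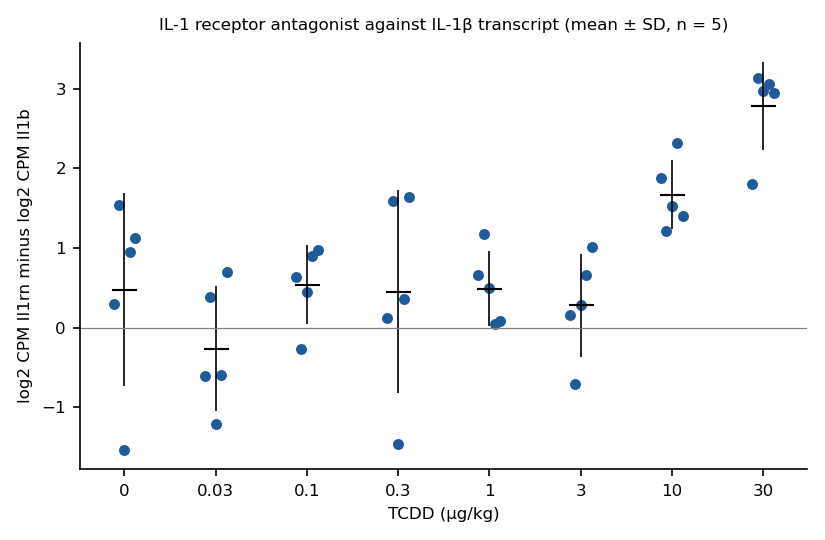
Log2 CPM of Il1rn minus log2 CPM of Il1b in each liver by TCDD dose (µg/kg), with mean ± SD (n = 5). The 5 livers at 30 µg/kg lie between 1.80 and 3.14, above all vehicle livers, whose highest value is 1.54.

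Markers of immune cells mostly rose at 30 µg/kg, as did 6 of the 7 tested members. All 8 macrophage markers rose at 30 µg/kg, with a median of 2.45 on the log2 scale. Their sum went from 106 to 141 CPM in vehicle livers to between 353 and 996 CPM, the lowest being replicate 1. That liver was also lowest for each of the 6 tested members that rose, and highest for Il18. Its stellate marker sum, 358 CPM, was likewise the lowest of the dose, and its hepatocyte marker sum, 63095 CPM, was the highest. The 5 monocyte markers all rose (median 2.61). Of the 7 neutrophil markers 5 were tested and all rose (median 4.50), their sum going from 1.96 to 3.98 CPM to between 16.5 and 54.6 CPM, and Ly6g and Mpo were at 0 in the vehicle livers. Of 6 Kupffer cell markers 5 rose and 1 fell, and 3 of 5 tested T and NK cell, 3 of 4 B and plasma cell, 3 of 5 dendritic cell, 4 of 6 endothelial, 5 of 6 stellate and 4 of 5 tested cholangiocyte markers rose, 1 cholangiocyte marker falling. The background for all these counts was 23.2% of all genes higher and 18.9% lower. None of 4 mast cell markers was tested.

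Each member was therefore also expressed relative to the mean log2 CPM of the 8 macrophage markers, which itself rose by 1.37 at 10 µg/kg and 2.34 at 30 µg/kg. Over 14 comparisons, 2-sided exact permutation tests gave 4 members that moved apart from these markers at each dose. Relative to them Il1rn was higher by 1.64 at 10 µg/kg and 2.25 at 30 µg/kg, and each of these 2 differences held in 5 of 5 livers (exact p = 0.00794, adjusted 0.0159). Il18 was lower by the same test, with differences of -2.38 and -4.54 (adjusted exact p = 0.0159 for both). This outcome was fixed once Il18 fell and the markers rose, so it adds nothing to those changes. Il1a was also lower relative to the markers, with differences of -0.55 and -1.33 (adjusted exact p = 0.0159 for both). For Il33 the differences were -0.54 (adjusted exact p = 0.0417) and -1.20 (adjusted exact p = 0.0159). The first was not past the threshold in 9 of 10 fits that left out a liver, all except that without vehicle replicate 5. In those fits too the smallest possible exact p is larger.

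Il1b, Nlrp3 and Tnf did not pass this test at either dose. Their differences from the macrophage markers at 30 µg/kg were -0.06 (exact p = 0.810), -0.37 (exact p = 0.381) and -0.69 (exact p = 0.0714), which does not show that they moved alike. Without vehicle replicate 1 the differences of Nlrp3 (-0.68, adjusted exact p = 0.0494) and Tnf (-0.93, adjusted exact p = 0.0278) passed. When 6 Kupffer cell markers took the place of the macrophage markers, a reference chosen after the data were seen, Il1rn and Il18 passed at both doses. For Il18 this was again fixed by its fall and the rise of the reference. Il1a and Il33 passed at neither dose, with differences at 30 µg/kg of -0.44 and -0.31.

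**Figure D4:**
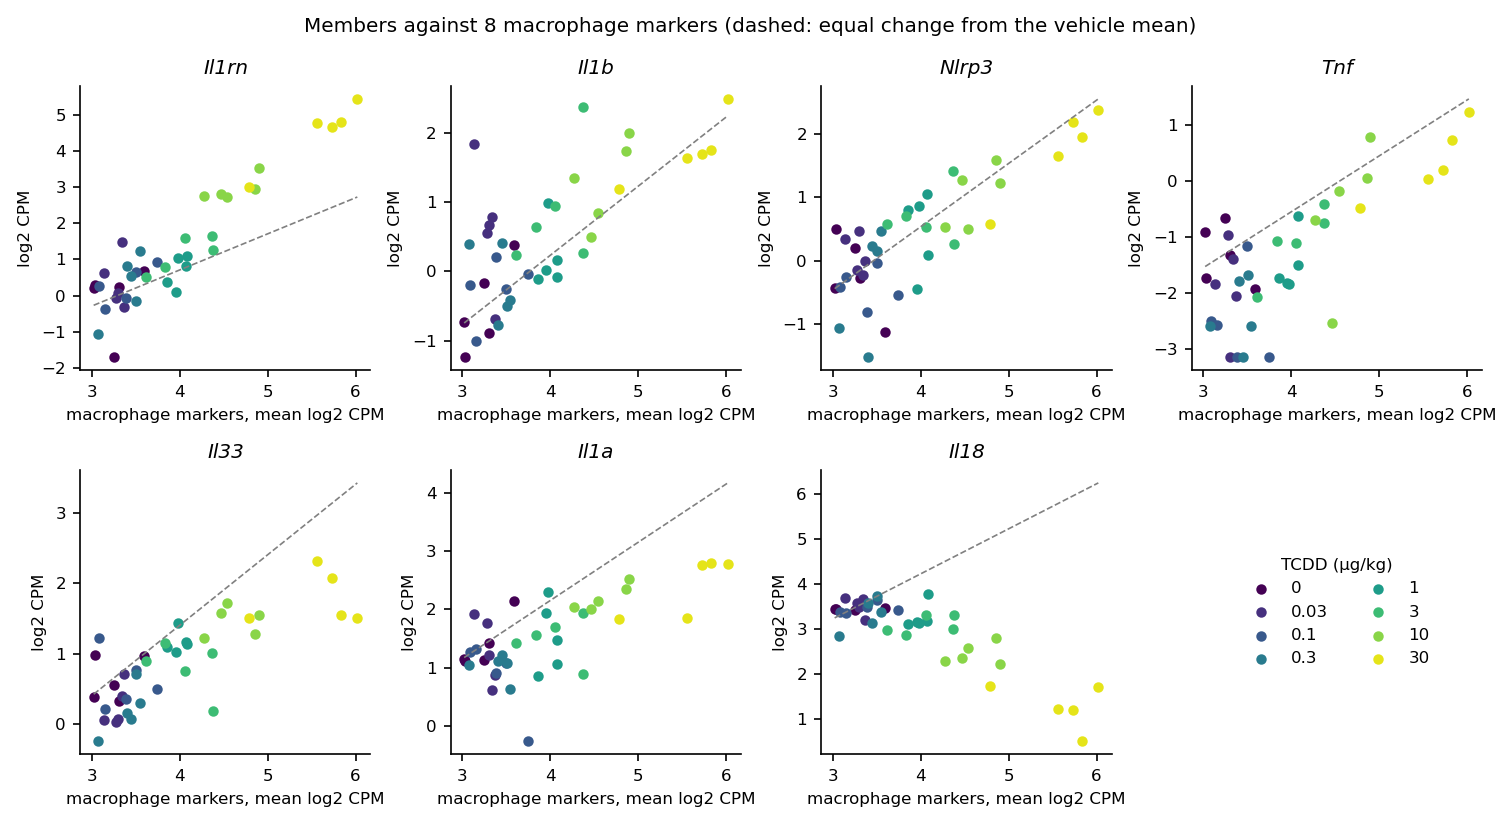
Log2 CPM of each tested member against the mean log2 CPM of 8 macrophage markers in 40 livers, colored by TCDD dose (µg/kg); the dashed line is an equal change from the vehicle mean. At 30 µg/kg Il1rn lies above the line by 2.25 on average and Il18 below it by 4.54, whereas Il1b lies about it.

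The remaining genes of the IL-1, TNF and IL-6 pathways were described with 7 lists of 94 genes, of which 66 were tested. Of these, 39 rose and 5 fell at 30 µg/kg (background 23.2% and 18.9%), and at 10 µg/kg 27 rose and 3 fell (background 13.6% and 8.13%). The same backgrounds apply to the counts of each list below. At 3 µg/kg 9 rose and 2 fell, which is 16.7% of the 66 against 6.75% of all genes in either direction, and at 1 µg/kg 4 rose and none fell, which is 6.06% against 2.78%.

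Of 12 tested receptor chains 7 rose and 2 fell at 30 µg/kg, with a median of 1.02. Il1rap, the accessory chain that IL-1R1 and the IL-33 receptor need for signaling, fell from 158 ± 15.0 to 16.3 ± 13.7 CPM (SD, n = 5; log2 fold change -3.28, adjusted p = 6.50e-13), whereas Il1r1 rose by 1.36 (adjusted p = 0.000370). Lifr, the receptor of leukemia inhibitory factor, fell by 2.20 (adjusted p = 1.27e-11), and Osmr, the specific oncostatin M receptor, rose by 1.60 (adjusted p = 1.38e-06). Il18rap, the accessory chain of the IL-18 receptor, rose by 3.00 from 0.186 ± 0.235 CPM (SD, n = 5), and Il10ra by 1.84. Il6ra, at -0.01, did not pass the test.

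Of 6 tested decoys and inhibitors 3 rose and none fell (median 1.27). They were Il18bp, which captures IL-18 and rose from 8.50 ± 0.918 to 35.7 ± 13.5 CPM (SD, n = 5; 2.07, adjusted p = 4.05e-12), the NF-kB inhibitor Tnfaip3 (1.94) and the JAK-STAT inhibitor Socs3 (1.41). Il18 and Il18bp thus moved in opposite directions. Il1r2, the decoy receptor that binds IL-1 without signaling, did not pass the filter, and was singled out after its values were seen. Its counts were 0, 0, 0, 1 and 0 in vehicle livers, 7, 11, 0, 4 and 9 at 10 µg/kg and 10, 124, 53, 36 and 26 at 30 µg/kg. All livers at the highest dose lay above vehicle, and replicate 2 held the most. The ratio of scaled sums was 165 (95% exact binomial interval 29.3 to 6531, from 249 counts against 1). That interval covers counting error only, and mouse-to-mouse spread is outside it. With no filter on low counts, edgeR's quasi-likelihood test gave adjusted p = 3.92e-07.

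Of 16 inflammasome components 13 rose and 2 fell (median 1.97), compared with 8 and 1 at 10 µg/kg. The pyrin gene Mefv rose by 4.40, from 0.184 ± 0.0795 to 3.91 ± 0.954 CPM (SD, n = 5), the adaptor Card9 by 3.52, the DNA sensor Aim2 by 2.85 and Pycard, which encodes the adaptor ASC that links NLRP3 to caspase-1, by 2.38. Casp1 rose from 1.61 ± 0.722 to 6.38 ± 1.60 CPM (SD, n = 5; 1.98, adjusted p = 1.13e-06). Gsdmd, the pore-forming target of caspase-1, fell by 1.04 (adjusted p = 1.18e-08), and Nlrp6 fell by 1.06 (adjusted p = 0.000518).

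Of 14 genes for priming signals 8 rose and none fell (median 0.61). Cd14 (2.85), Tlr4 (2.40) and Tlr2 (1.85), receptors of microbial products, and the NF-kB subunit Relb (1.45) rose most among them, while Rela (-0.04), Nfkb1 (0.02) and Myd88 (-0.01) did not pass the test. Of 5 tested enzymes that release or process cytokines, 1 was called, as higher (background 23.2% higher and 42.1% in either direction). That is no larger a share than among all genes. It was Rhbdf2 (0.90), a partner of the TNF-releasing protease ADAM17, and Adam17 itself was at 0.28 (adjusted p = 0.0610).

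Among 20 related ligands of the same families 8 were tested, 5 rose and 1 fell (median 2.16). Lif, an IL-6 family cytokine, went from 3 counts in all vehicle livers to 198 at 30 µg/kg, a ratio of scaled sums of 43.7 (95% exact binomial interval 14.7 to 213). Il36g, of the IL-1 family, went from 4 to 145 counts (ratio 24.0, 9.17 to 89.2). Both intervals cover counting error only and leave out mouse-to-mouse spread. Clcf1 rose by 2.96 and Ltb by 2.21, and Ctf1 fell by 0.93. Of 15 other inflammatory cytokines 5 were tested, of which Tgfb1 (1.97) and Csf1 (1.12) rose, with a list median of 0.67. Il17a had 0 counts in vehicle and at 30 µg/kg, and Ifng had 1 count in each.

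**Figure D5:**
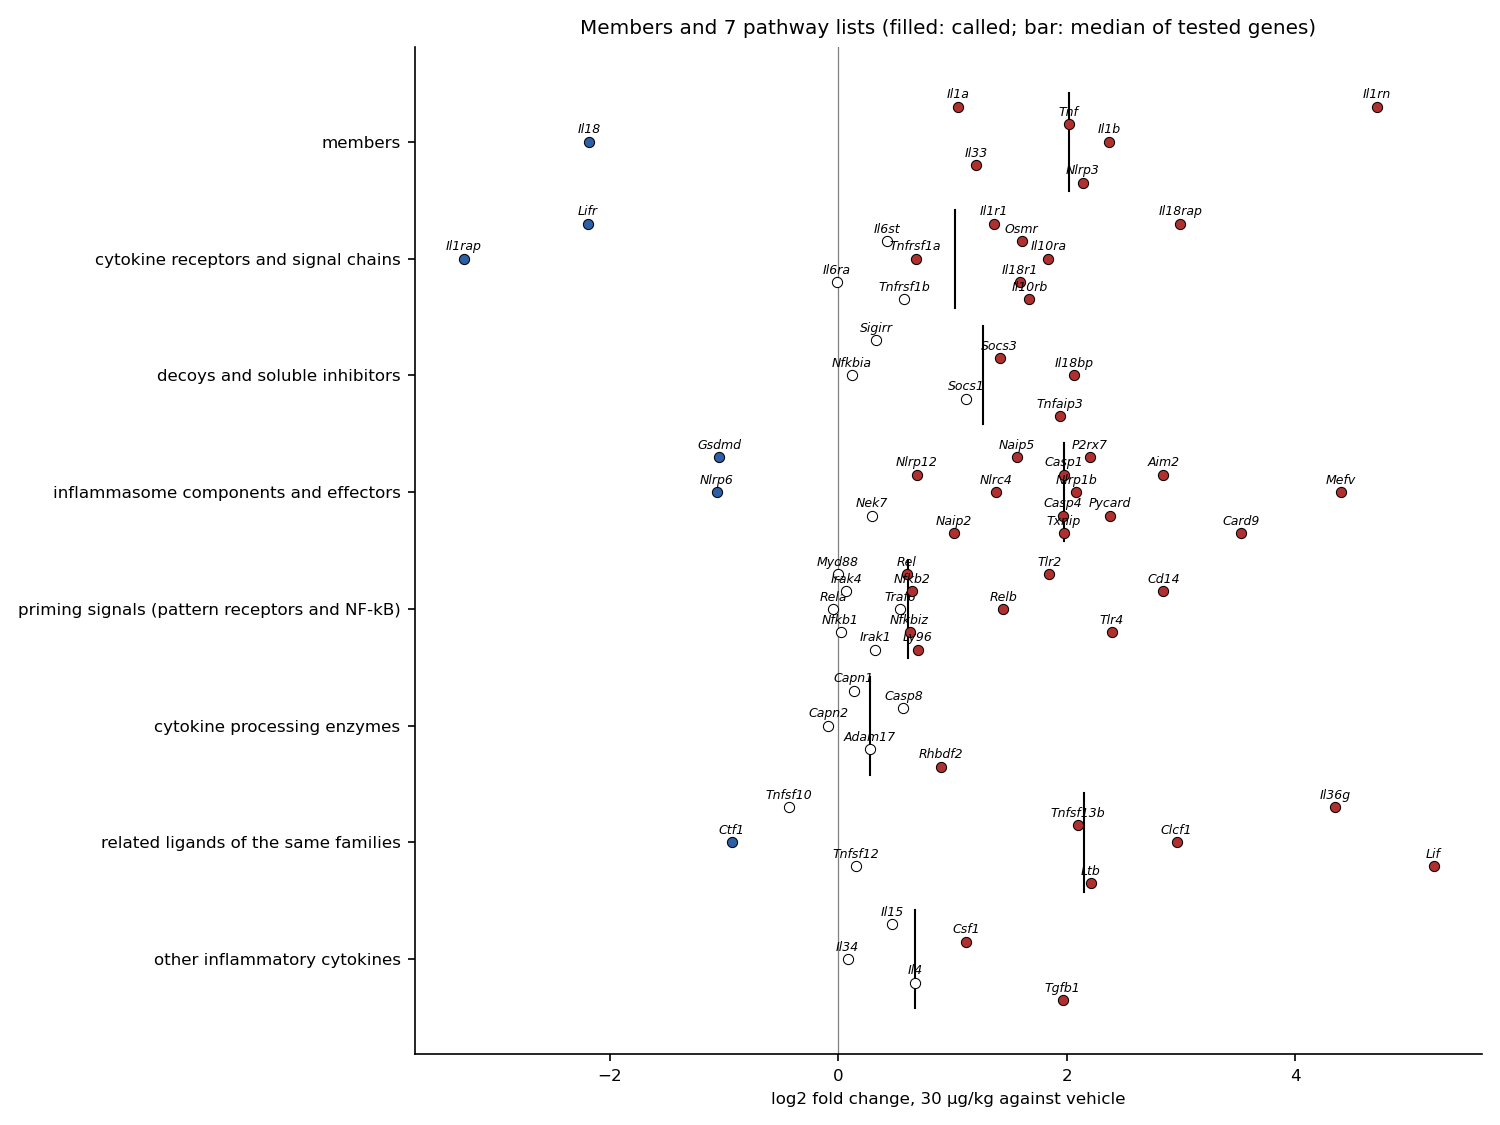
Log2 fold change at 30 µg/kg TCDD against vehicle (5 livers each) for the 7 tested members and the 66 tested genes of 7 pathway lists, with red points for called rises, blue for called falls, open for not called and bars for medians. The inflammasome list has a median of 1.97, close to the members' 2.02, and Il1rap lies farthest to the left at -3.28.

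The numbers in the sample titles formed 2 series, up to 27 (19 libraries) and from 28 (21 libraries), and their meaning is not given in the labels. With the series as a covariate the 7 calls at 30 µg/kg held. Within the first series, 3 vehicle livers and 2 at 30 µg/kg, only Il1rn (4.17), Il18 (-2.02) and Il33 (1.15) were called. Il1a was at 0.29 there (adjusted p = 0.559), Tnf at 1.41 (adjusted p = 0.193), Il1b at 1.72 (adjusted p = 0.0576) and Nlrp3 at 1.31 (adjusted p = 0.105). Within the second series 6 members were called, Il1a among them, and Tnf was at 2.13 (adjusted p = 0.104). At 10 µg/kg the first series alone called Il1rn and Il18, with Il1a at 0.70 (adjusted p = 0.201), Il1b at 1.65 (adjusted p = 0.122), Il33 at 0.68 (adjusted p = 0.188) and Nlrp3 at 1.23 (adjusted p = 0.205). The second series called 4 members at that dose, with Il1a at 0.94 (adjusted p = 0.137) and Nlrp3 at 1.53 (adjusted p = 0.0520) not called. The rise of Il1rn from 10 to 30 µg/kg was not called in the first series (1.31, adjusted p = 0.177). Each series held fewer livers per group than the full fit, and the share of all genes called within a series is not given here. The counts of members called in the 2 series therefore cannot be compared. The difference between the series was not tested.

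The genes whose levels followed those of a member most closely were found by Pearson's r of log2 CPM over 40 libraries among 12479 genes. These values are descriptions, since all points share the dose series. For Il1rn they were Sirpa (r = 0.951), Lyz2 (0.951) and Csf2rb2 (0.950), and for Il18 they were Gstm6 (0.960), Wfdc21 (0.953) and Mup3 (0.948). The best matches were lower for Nlrp3 (Plekhm2, 0.855), Il33 (Plxnc1, 0.859), Il1a (Arap2, 0.835), Tnf (Tnfaip2, 0.813) and Il1b (Fam43a, 0.798). With the dose means removed, Lyz2 stayed among the nearest for Il1rn (0.701) behind Lfng (0.732) and Fcer1g (0.721), and Dhrs7 (0.755) was nearest to Il18. Single livers can weigh heavily in these values. Replicate 1 at 30 µg/kg was the lowest of its dose for both Il1rn and the macrophage markers, and its weight was not tested.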

How the data were processed

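Hepatic RNA of 40 mice was sequenced by the authors as 150 bp paired-end reads. Per the submitters' processing notes, FastQC 0.11.7, Trimmomatic 0.39 and STAR 2.7.3a were used; GRCm39 and mm10 are both named without a role, and the annotation is not given in the sources used here. The authors deposited counts per gene for each library, unstranded and for each strand setting, and a normalized table on a log2 scale, whose method is not given in the sources used here and which served only as an alternative, without the planned further log step. The unstranded counts were used, since 50.0% to 50.3% of strand counts fell on the first setting. They leave out reads in exons shared by genes. Unmapped, multimapped, ambiguous and non-genic reads stayed out of the totals, and gene counts held 71.3% to 80.8% of reads. Of 55359 identifiers, 52083 were named through GENCODE M21, which also gave exon lengths for TPM and gene overlaps on GRCm38.

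Groups came from the dose label. Replicate numbers follow accession order and pair no mice. The test was edgeR 4.0.16 (R 4.3.3), with filterByExpr (minimum count 10, minimum total 15), TMM scaling, and a quasi-likelihood fit with 1 mean per dose over all 40 libraries, with Benjamini-Hochberg adjustment within each contrast. The study's 1.5-fold threshold was kept, and edgeR took the place of its posterior probability. Log2 CPM for single comparisons used a prior count of 2. The script was tested on simulated data. Alternatives were DESeq2 1.42.0, limma 3.58.1 on the deposited log2 values, other scalings and filters, the groups alone, the title series, the strand columns and each library left out. The members and lists were chosen with earlier results of these data known. Genes of a list were named for the largest absolute changes among those called, with a mean of 20 or more counts in whichever group was higher and at most 4 per list, and further genes named for their role were chosen after their values were seen.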

Additional observations from a re-analysis of the deposited data

Results flagged for a closer look

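The tested members gave 56 groups of 5 livers. In 9 of them the highest CPM stood apart by over 0.71 of the group's range (Dixon's 95% limit). Normally distributed values pass that limit in about 1 in 20 groups. Linear CPM of low counts may be skewed, so the 9 groups cannot be held against that rate. For Tnf the flagged livers were replicate 4 at 0.1 µg/kg and replicate 1 at 1 µg/kg. Their levels were 0.332 CPM (the others up to 0.0637) and 0.534 CPM (0.165 to 0.239). For Il1a it was vehicle replicate 1 with 4.28 CPM (2.05 to 2.58). For Il1b they were replicate 4 at 1 µg/kg with 1.87 CPM (0.819 to 1.01) and replicate 2 at 3 µg/kg with 5.07 CPM (1.07 to 1.81). For Nlrp3 it was the same replicate 2 at 3 µg/kg with 2.57 CPM (1.09 to 1.51). For Il1rn it was replicate 3 at 10 µg/kg with 11.5 CPM (6.48 to 7.66). For Il18 they were vehicle replicate 5 with 11.5 CPM (10.7 to 10.9) and replicate 2 at 1 µg/kg with 13.6 CPM (8.57 to 8.95).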

How the results depend on the processing

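The count of 7 members at 30 µg/kg was the same with DESeq2, limma, both other scalings, no filter, the series as a covariate and each library left out, and was 6 in the second title series alone. At 3 µg/kg there were 0 members called with a mean of at least 50 counts required, in either title series alone and with the strand-specific column, 2 with DESeq2, and 0 to 2 when a library was left out (0 without replicate 2 of that dose, 2 without replicate 1 at 30 µg/kg). Requiring a mean of 50 counts left 3 members to test, of which 3 were called at 10 µg/kg, 3 at 30 µg/kg and 3 for the trend. The first title series alone gave 2 calls at 10 µg/kg, 3 at 30 µg/kg and 1 from 10 to 30 µg/kg, and total-count scaling gave 4 from 10 to 30 µg/kg. The Il1a call at 10 µg/kg was lost without any one of vehicle replicates 2 to 5 or 10 µg/kg replicates 2 and 3 (0.71 to 0.78, adjusted p up to 0.0845) and without a filter on low counts (0.81, adjusted p = 0.0560). With limma 4 members were called at 10 µg/kg, since Il1a (0.58) and Il33 (0.51) were under 1.5-fold.

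Relative to Kupffer cell markers, 2 members passed at 30 µg/kg and 2 at 10 µg/kg in place of 4 each. At 30 µg/kg Tnf (0.20), Il1b (0.82) and Nlrp3 (0.52), and at 10 µg/kg Nlrp3 (0.20), then had the opposite sign, none past the test. Il1b relative to macrophage markers at 30 µg/kg was 0.088 with a prior count of 0.5 and 0.090 against Csf1r alone, and -0.19 to 0.079 when a library was left out. Nlrp3 at 10 µg/kg was -0.43 to 0.11. The Il1rn to Il1b ratio at 10 µg/kg did not pass with a prior count of 0.5 (1.20), and was 0.69 to 1.46 with a library left out. Differences that were not called also changed sign. Il1a at 3 µg/kg was -0.11 with the strand-specific column, -0.040 with both strand columns summed and -0.032 to 0.35 with a library left out. From 10 to 30 µg/kg in the first title series, Tnf was -0.15 and Il1a -0.42. The causes were not tested. No paired analysis was possible because replicate numbers follow accession order and tie no mice across groups. At 15.5 to 21.0 M counts, Il6, Il10 and Osm did not pass the filter, and without it the Osm trend was the only change of these 3 called at 30 µg/kg or over the dose steps.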
